A study of Mus musculus with 8 samples.

Results

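The subject of this report is the regulatory DNA of Sgk1 in microglia, the resident macrophages of the brain. It comprised the 38 regions that the deposited table assigns to Sgk1 by their nearest promoter, of 129304 listed regions, each 800 bp wide. The regions lay on chromosome 10 between 21826681 and 22017857, a span of 191 kb. Sgk1 was chosen by its H3K27ac values in the 2 genotypes compared here, so the values of its own regions in that comparison are given as a description, without a test. The inputs and the regions of other genes did not enter the choice.

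Sgk1 encodes serum/glucocorticoid regulated kinase 1, a serine/threonine kinase of the AGC family related to AKT. Its transcription is switched on rapidly by glucocorticoids, growth factors and osmotic or other cell stress, and the protein becomes active once mTOR complex 2 (mTORC2) and PDPK1 have phosphorylated it downstream of PI3-kinase. It phosphorylates regulators of ion transport and FoxO transcription factors. Acetylation of histone H3 at lysine 27 (H3K27ac) marks active promoters and enhancers.

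ChIP-seq for H3K27ac, in which acetylated chromatin is precipitated and its DNA sequenced, had been run on brain nuclei sorted to carry PU.1, a myeloid transcription factor, and to lack OLIG2 and NEUN (markers of oligodendrocytes and neurons). The mice were C57BL/6, aged 2 years, and either wild type (WT) or without functional Grn (GrnKO), the gene of progranulin. Each genotype had 2 H3K27ac libraries and 2 input libraries of unprecipitated chromatin, and each library came from nuclei pooled from 2 mice. The labels name no promoter or cell type for the loss of Grn. P-values measure the spread between pools of mice. The 2 pools of each genotype also differed in their Xist and Y signal, given below, so this spread includes that difference.

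The H3K27ac libraries held between 15491642.5 and 20030832 tags and the inputs between 4078179 and 14415969. Values are scaled tags, which are tags per region at a library total of 10000000. The listed regions took 49.4% of tags in WT replicate 1 and between 63.3% and 65.7% in the other H3K27ac libraries. For that reason differences are given after TMM scaling, which aligns the bulk of regions between libraries. The authors' scaling is added mainly for sums, lists and single Sgk1 regions whose sign it changes. It raised the log2 differences of the other Sgk1 regions too, for example from 0.29 to 0.51 at the one starting at 21993771. Replicate 1 of both genotypes had signal at Xist (81.7 scaled tags in WT, 128 in GrnKO, over 3 regions) and little at start sites on the Y chromosome (5.81 in WT, 0 in GrnKO), while replicate 2 had the reverse (0 and 5.49 at Xist, 269.6 and 220.2 on Y).

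Promoter regions of 7 of 8 microglial markers were listed. Their summed level per region was between 2536 and 3641 in WT and between 2896 and 3004 in GrnKO. Neuronal markers had 3 of 8 promoters listed, with a sum of at most 4.74 in any library, and Olig1 and Olig2 had at most 2.58. Oligodendrocyte markers summed to 199 and 204 at promoters in WT and to 213 and 220.5 in GrnKO, most of it at Cnp, while Mog went the other way, with 44.5 and 49.4 in WT and 29.7 and 27.2 in GrnKO. Endothelial markers, with 2 of 5 promoters listed, had sums of 38.9 and 57.2 in WT and 82.8 and 91.2 in GrnKO. These 2 promoters went opposite ways: Flt1 had 3.44 and 10.8 in WT and 51.9 and 52.0 in GrnKO, and Pecam1 35.5 and 46.4 in WT against 30.9 and 39.2 in GrnKO. Astrocyte markers summed to between 42.4 and 54.9 in WT and between 54.5 and 68.0 in GrnKO, border macrophage and monocyte markers to between 77.6 and 109.7 in WT and between 90.1 and 122.6 in GrnKO. Summed over all regions of a gene (limma, adjusted p under 0.05 over all genes), 5 of 8 tested microglial markers fell, among them Cx3cr1, Tmem119, Csf1r and Sall1, and the other 3 did not pass, where 8.59% of all tested genes rose and 5.88% fell. At the same threshold Mbp rose by 0.47 on the log2 scale and Mog fell by 1.30, of 4 oligodendrocyte markers tested. Flt1 rose by 0.95 and Pecam1 fell by 1.45, of 4 endothelial markers tested. Syt1 fell by 0.99, of 4 neuronal markers, and Ccr2 by 0.53, of 6 border macrophage and monocyte markers, and the 3 astrocyte markers tested did not pass. With the authors' scaling the microglial markers, Syt1 and Ccr2 did not pass, and the border macrophage marker F13a1 passed (0.82). Ms4a1, the 1 T and B cell marker tested, rose by 1.35, from 180.4 and 204.5 scaled tags in WT to 658 and 501 in GrnKO. The part of these markers in the results at Sgk1 was not tested. In pooled nuclei a change in the share of cells that carry a mark and a change in the mark per cell cannot be told apart.

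Sgk1 has several alternative first exons. The deposited table places its regions relative to 5 start sites, all of which match a start site of Sgk1 in the RefSeq promoter table (GRCm38.p6), and that table lists 6. The 250 bases upstream of 4 of them overlap a listed region. These 4 are shown because they separate a silent start from the 3 acetylated ones. All lie on the plus strand, and capitals mark matches to any motif of the search described after them.
NM_001161845, chr10:21881934-21882183: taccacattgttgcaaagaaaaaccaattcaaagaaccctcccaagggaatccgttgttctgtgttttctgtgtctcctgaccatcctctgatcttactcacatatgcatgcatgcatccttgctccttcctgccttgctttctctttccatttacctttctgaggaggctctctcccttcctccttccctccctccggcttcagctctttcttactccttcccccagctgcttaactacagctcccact
NM_001161849, chr10:21991973-21992222: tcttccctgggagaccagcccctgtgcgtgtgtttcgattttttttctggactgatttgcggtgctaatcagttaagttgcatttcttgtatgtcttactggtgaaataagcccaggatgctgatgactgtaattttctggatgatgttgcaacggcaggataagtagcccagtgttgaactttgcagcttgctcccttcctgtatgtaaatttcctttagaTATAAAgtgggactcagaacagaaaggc
NM_001161850, chr10:21993640-21993889: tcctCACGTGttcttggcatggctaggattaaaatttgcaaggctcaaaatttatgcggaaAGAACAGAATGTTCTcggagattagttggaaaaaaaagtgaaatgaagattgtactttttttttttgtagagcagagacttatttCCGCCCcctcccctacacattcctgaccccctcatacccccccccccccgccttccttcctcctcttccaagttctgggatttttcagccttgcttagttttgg
NM_011361, chr10:21994416-21994665: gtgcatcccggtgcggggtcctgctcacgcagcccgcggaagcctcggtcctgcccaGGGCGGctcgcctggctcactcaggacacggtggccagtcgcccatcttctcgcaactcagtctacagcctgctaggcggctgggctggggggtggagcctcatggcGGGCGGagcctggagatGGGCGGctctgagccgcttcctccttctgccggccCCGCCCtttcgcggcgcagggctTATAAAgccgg

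The 250 bases were searched on both strands for the glucocorticoid receptor element (AGAACA and TGTTCT with 3 bases between them) and its shorter core (GNACA and TGTNC with 3 bases between them), the E-box CACGTG bound by MITF and TFEB among others, the AP-1 site TGANTCA, the cyclic AMP element TGACGTCA, the FoxO site GTAAACA, the PU.1 site GAGGAAGT, the SP1 site GGGCGG and the TATA box TATAAA. The sequence upstream of NM_001161850 held the complete glucocorticoid receptor element, as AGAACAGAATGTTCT from 189 to 175 bases before the start, which was present in 3 of 32851 promoters of the table (0.00913%). The core, which the complete element contains, was present in 0.387%. The same stretch held an E-box from 246 to 241 bases before the start, a motif found in 6.02% of promoters, and 1 SP1 site, found in 32.7%. The sequence upstream of NM_011361 held 4 SP1 sites and a TATA box, and 70.4% of its bases were G or C, against a median of 52.4% over all promoters. The sequence upstream of NM_001161849 held a TATA box (found in 12.4% of promoters), and that of NM_001161845 held no match to any of these motifs. A match describes letters only and shows no binding.

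The sum over all 38 regions was 1867 and 2089 scaled tags in the WT pools, against 3555 and 3519.8 in those of GrnKO. Both GrnKO values lay above both WT values, and the GrnKO libraries were closer to each other than the WT libraries were. After TMM scaling the WT mean was 2140 ± 173 and the GrnKO mean 3270.3 ± 24.3 (SD, n = 2), a ratio of 1.53 and a log2 difference of 0.61 with a standard error of 0.087 from the fit over 15380 genes. In the authors' scaling the ratio was 1.79. Overlapping regions share tags, and 24 of the 38 overlap another, so that the regions cover 24037 bp. Over 26 regions that do not overlap, the log2 difference was 0.56. Single regions differed widely around this sum. Of the 38, 31 held enough tags for the fit over all regions, and their log2 differences ran from -0.54 to 2.71 with a median of 0.65, beside a median of -0.0020 over all 80728 tested regions. With the authors' scaling these medians were 0.88 and 0.22. The regions at the upper end of the range, starting at 21999765 and 22000330, were under the tag filter in both WT libraries. They entered the fit only through GrnKO. Both GrnKO libraries lay above both WT libraries in 26 of the 38 regions and below in 3, where 21.9% and 22% of all listed regions did so. With the authors' scaling the first count was 30, where 28.1% of all listed regions did so. These include regions with too few tags for the fit. Among the 31 in the fit, 22 lay above and 1 below after TMM scaling, where 27% and 25.6% of all tested regions did so. These counts come from the comparison for which Sgk1 was chosen.

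**Figure D1:**
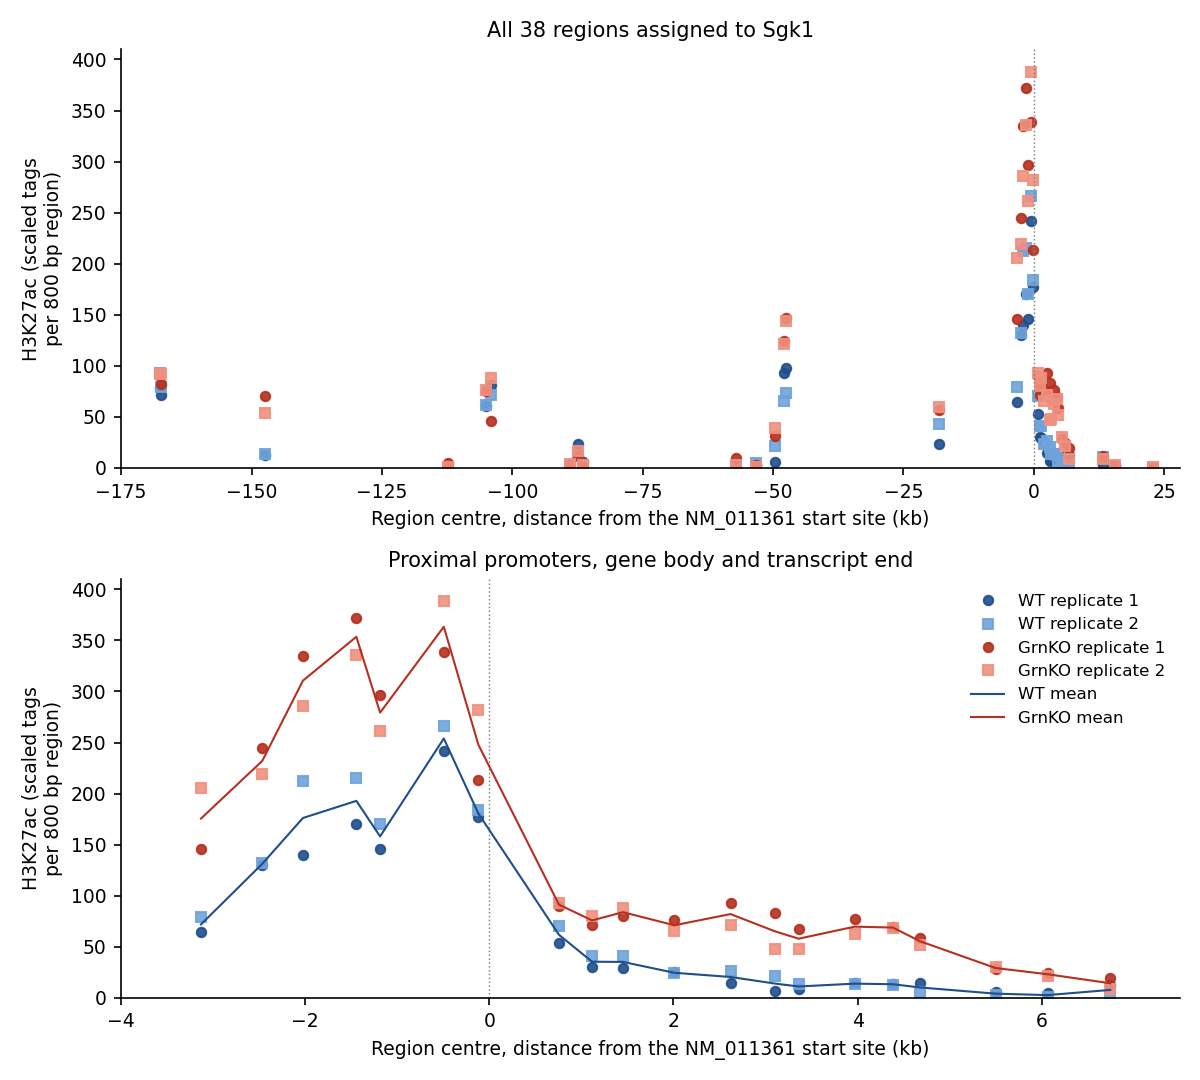
H3K27ac in each library (scaled tags per 800 bp region, vertical axes) against the distance of the region's centre from the NM_011361 start site (kb, horizontal axes), for all 38 Sgk1 regions (top) and for the stretch from the proximal promoters to past the transcript end (bottom), where lines join the means of 2 libraries per genotype. The highest regions lay just upstream of the start in both genotypes, and the GrnKO points stayed above the WT points from there to about the transcript end.

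The proximal promoters carried most of the acetylation. The 7 regions that begin upstream of the NM_011361 start and have their centre within 1000 bp of the nearest start (NM_001161849, NM_001161850 or NM_011361) overlap in 1 stretch of 3814 bp, from 21991133 to 21994947, and include a region annotated to intron 1 of 11 of NM_001161849. They took 57.3% and 60.3% of the Sgk1 sum in WT and 54.7% and 56.2% in GrnKO. The one starting at 21993771, which holds the start of NM_001161850, had the highest WT level: 242 and 266 scaled tags in WT and 339 and 388 in GrnKO, with no overlap between genotypes. Its log2 difference was 0.29 (SE 0.15). Next to it, the region starting at 21993079, which covers most of the printed sequence with the glucocorticoid receptor element, had 146 and 171 in WT and 297 and 262 in GrnKO (log2 difference 0.59, SE 0.16). At the start of NM_011361, the region starting at 21994147 had 177 and 184 in WT and 213 and 282 in GrnKO (0.22, SE 0.18), and its TMM-scaled values overlapped between genotypes. This log2 difference was 0.42 without GrnKO replicate 1 and 0.015 without GrnKO replicate 2.

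Within the stretch the difference was largest at the upstream end. The first region, starting at 21991133, had 64.2 and 79.5 scaled tags in WT and 146 and 205 in GrnKO (log2 difference 1.04, SE 0.22). Over the start of NM_001161849, the region starting at 21991799 had 130.4 and 132 in WT and 244 and 219.7 in GrnKO (0.59, SE 0.18). In the annotated intron, the region starting at 21992241 had 140.1 and 212 in WT and 335 and 286 in GrnKO (0.62, SE 0.17). Just upstream of NM_001161850, the region starting at 21992821 had 170.1 and 216 in WT and 372 and 335 in GrnKO (0.65, SE 0.15). In these 4 the genotypes did not overlap. The 7 regions together held 1256 ± 56.1 TMM-scaled tags in WT and 1814 ± 20.5 in GrnKO (SD, n = 2), a ratio of 1.44, and 1.68 in the authors' scaling.

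The gene body took a larger share of the sum in GrnKO. Its 10 regions, with centres from 756 to 4680 bp past the NM_011361 start and annotated to introns, exons and the 3′ untranslated region of exon 12, took 11.3% and 12.8% of the Sgk1 sum in WT and 21.6% and 19.2% in GrnKO. This share does not depend on the scaling of the libraries. Together they held 257 ± 2.32 TMM-scaled tags in WT and 667 ± 59.8 in GrnKO (SD, n = 2), a ratio of 2.59, and 3.01 in the authors' scaling. The genotypes did not overlap in any of the 10, which overlap one another, and both GrnKO libraries lay above both WT libraries in 27% of all tested regions. The first, starting at 21995022 in intron 2 of 11, had 53.2 and 70.2 scaled tags in WT and 89.6 and 92.9 in GrnKO (log2 difference 0.35, SE 0.24). Midway, in intron 7 of 11, the region starting at 21996277 had 25.2 and 23.9 in WT and 76.5 and 65.7 in GrnKO (1.27, SE 0.32). In the 3′ untranslated region, the one starting at 21998649 had 13.9 and 12.8 in WT and 69.7 and 67.9 in GrnKO (2.07, SE 0.36). In WT the mark fell off along the gene, and in GrnKO each of the 10 regions held between 47.4 and 92.9 scaled tags.

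The regions between these had differences from 0.87 to 2.09. Those starting at 21995382 and 21995717, in introns 3 and 5, ranged from 29.4 to 41.0 scaled tags in WT and from 71.3 to 87.6 in GrnKO (log2 differences 0.87 and 1.03). Those starting at 21996886, 21997367, 21997626 and 21998235 had between 7.10 and 26.3 in WT and between 47.4 and 92.7 in GrnKO (1.78, 2.05, 2.09 and 2.02). The last one, starting at 21998946 and also in the 3′ untranslated region, had 14.8 and 5.43 in WT and 59.0 and 51.7 in GrnKO (2.26, SE 0.49). The WT libraries differed here, and the log2 difference was 3.07 without WT replicate 1 and 1.46 without WT replicate 2. From the first to the last of the 10 the log2 difference thus ran from 0.35 to 2.26. Neighbouring regions share tags and all come from the same 4 libraries.

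**Figure D2:**
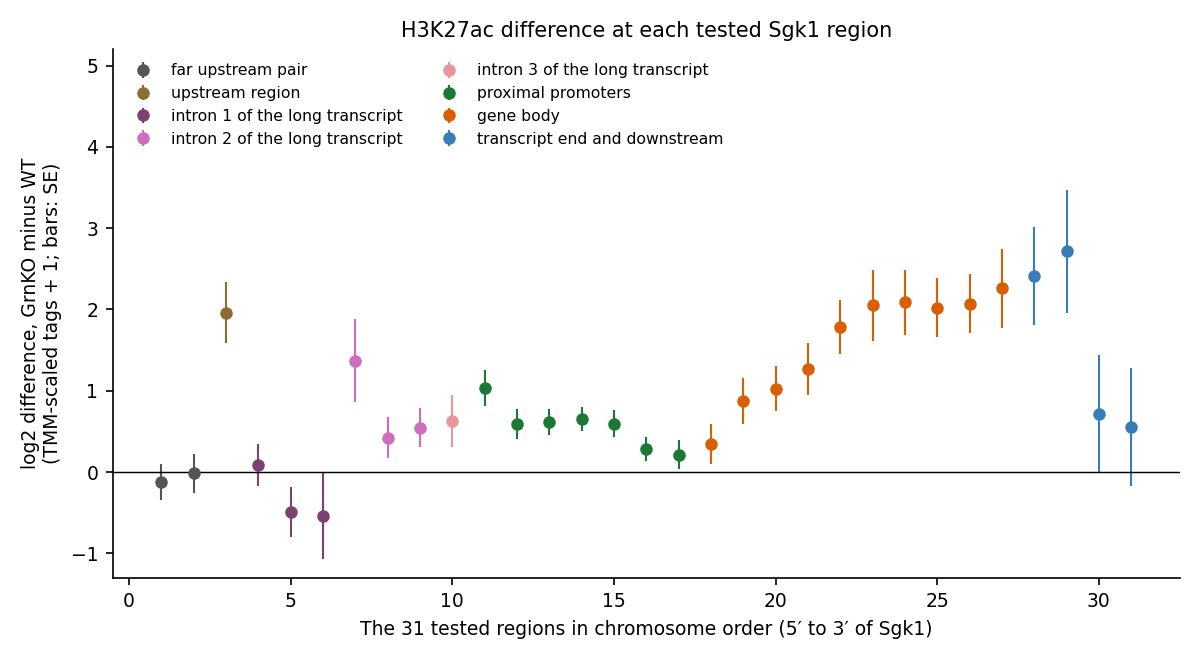
Log2 difference in H3K27ac between genotypes (GrnKO minus WT, vertical axis; TMM-scaled tags + 1; bars show the SE of the limma fit) for the 31 tested Sgk1 regions in chromosome order (horizontal axis), coloured by position. The difference runs from 0.22 at the start of NM_011361 to 2.71 past the transcript end, and lies near or below 0 in the far upstream pair and in intron 1 of the long transcript.

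At and beyond the transcript end the level was low in both genotypes. Of these, the region starting at 21999765 had 5.49 and 2.71 scaled tags in WT and 28.4 and 29.9 in GrnKO (log2 difference 2.41, SE 0.60), and the region starting at 22000330 had 4.52 and 0.81 in WT and 24.5 and 21.7 in GrnKO (2.71, SE 0.75). Both are annotated to the transcript end of NM_001161850, and in both the genotypes did not overlap. Their log2 differences were 2.97 and 3.69 without WT replicate 1, and 1.87 and 1.79 without WT replicate 2. The 0.81 scaled tags of WT replicate 2 lie under the floor of 3 tags, which is 1.63 scaled tags in that library. Further downstream the genotypes overlapped and the log2 differences were 0.72 and 0.55: the region starting at 22001011, in a B1 SINE repeat, had 12.3 and 3.26 in WT and 19.6 and 8.99 in GrnKO, and for the one starting at 22007565 the WT values were 2.90 and 10.3 and the GrnKO values 11.6 and 8.74. The last 2 regions, starting at 22009909 and 22017057, had at most 3.24 in any library and were not tested.

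The input libraries, which the choice of Sgk1 did not use, were read at the same regions. The WT inputs summed to 102 and 99.99 scaled tags and the GrnKO inputs to 118 and 174, which is 101 ± 1.25 against 146 ± 40.2 (SD, n = 2). A two-sided exact permutation test of this difference returned p = 0.33, and no arrangement of 2 against 2 libraries can return less. H3K27ac exceeded input over the 38 regions by 18.3 and 20.9 times in the WT pools and by 30.2 and 20.2 times in the GrnKO pools. Input tags were not evenly spread, with 32, 19, 17 and 32 of the 38 regions at 0 in the 4 libraries. In GrnKO replicate 2 the region starting at 21997626, over exon 10 of 12, had 56.1 scaled tags in the input (27.5 tags) against 47.9 in H3K27ac, and the gene body as a whole 117 against 675. In GrnKO replicate 1 the gene body had 34.0 in the input against 766 in H3K27ac. With the input of each pool subtracted the log2 difference of the gene body sum was 1.42, and without GrnKO replicate 2 it was 1.46, against 1.37 with all libraries and no subtraction. WT replicate 1 had 58.9 scaled tags of input (24 tags) at the region starting at 21976125, against 23.2 in H3K27ac. The region starting at 22001011 had 27.6 scaled tags of input in GrnKO replicate 2 (13.5 tags) against 8.99 in H3K27ac. Input also exceeded H3K27ac in 4 regions of WT replicate 2 (21905415, 21940991, 21999765 and 22017057) and in 3 of GrnKO replicate 1 (21907754, 21940991 and 22017057), all with H3K27ac of at most 4.61 scaled tags there.

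**Figure D3:**
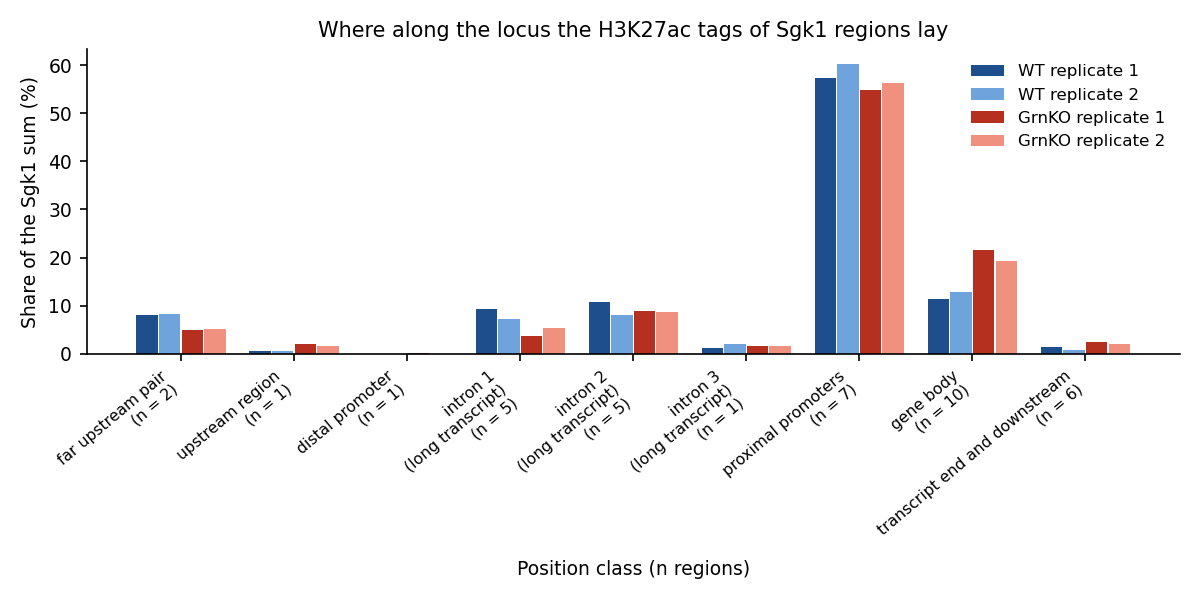
Share of the summed H3K27ac of all 38 Sgk1 regions (%, vertical axis) that lay in each position class (horizontal axis, with the number of regions), 1 bar per library. The gene body took 11.3% and 12.8% in the WT libraries and 21.6% and 19.2% in the GrnKO libraries, while the far upstream pair took a smaller share in GrnKO.

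The regions far from the proximal promoters fell into several kinds. An overlapping pair of intergenic regions starting at 21826681 and 21826956, about 55 kb before the start of NM_001161845, was strongly marked in both genotypes. The first had 78.1 and 92.5 scaled tags in WT and 90.2 and 92.4 in GrnKO, and the second 71.7 and 78.9 in WT against 82.6 and 91.6 in GrnKO. Their log2 differences were -0.12 and -0.02 after TMM scaling and 0.10 and 0.21 with the authors' scaling, so the sign depended on the scaling. The next region, starting at 21846799, behaved otherwise. It had 12.3 and 13.6 in WT and 70.3 and 54.2 in GrnKO, with no overlap, a ratio of 4.12 after TMM scaling (log2 difference 1.96, SE 0.38). The distal start itself, NM_001161845, was close to empty: the region starting at 21881880 held 0 in both WT libraries and 4.59 and 0.50 in GrnKO, of which the latter is under the floor of 3 tags.

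Within the long first intron of NM_001161845 (intron 1 of 13) 2 neighbouring regions were marked in both genotypes. The one starting at 21889205 had 60.4 and 61.3 scaled tags in WT and 75.2 and 75.9 in GrnKO (log2 difference 0.09, SE 0.26), and the one starting at 21890097 had 81.7 and 71.1 in WT and 45.6 and 87.9 in GrnKO (-0.49, SE 0.31). This last log2 difference was -0.02 without GrnKO replicate 1 and -0.95 without GrnKO replicate 2. The genotypes overlapped in both after TMM scaling. A weaker region starting at 21906875 had 23.9 and 13.02 in WT and 11.9 and 16.2 in GrnKO (-0.54, SE 0.53). The remaining 2 of this intron, starting at 21905415 and 21907754, had at most 5.49 in any library and were not tested.

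In intron 2 of 13 an overlapping pair of regions starting at 21946454 and 21946832 was the strongest site in GrnKO outside the proximal promoters. The first had 93.0 and 65.4 scaled tags in WT and 124 and 122 in GrnKO (log2 difference 0.42, SE 0.26), and the second 97.5 and 73.5 in WT and 146 and 144 in GrnKO (0.55, SE 0.24). After TMM scaling the genotypes overlapped in the first and not in the second. The log2 differences of this pair were 0.84 and 0.91 without WT replicate 1, and 0.014 and 0.19 without WT replicate 2. A nearby region in a SINE repeat, starting at 21944628, had 5.49 and 21.4 in WT and 31.2 and 39.2 in GrnKO (1.37, SE 0.51). The WT libraries differed from each other by more than the GrnKO libraries did, and the log2 difference was 0.62 without WT replicate 1 and 2.12 without WT replicate 2. The other 2 regions of this intron, starting at 21937131 and 21940991, had at most 9.79 and were not tested. The region in intron 3 of 13, starting at 21976125, had 23.2 and 43.4 in WT and 57.2 and 59.4 in GrnKO (0.63, SE 0.32), where the input of WT replicate 1 was high as given above. Its log2 difference was 0.36 without WT replicate 1 and 0.91 without WT replicate 2.

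Regions that the table assigns to other genes were tested around Sgk1, since they did not enter the choice of members. Within 500 kb of the NM_011361 start lay 78 such regions of 11 genes, of which 51 were tested. Of these, 10 were higher in GrnKO and 0 lower (limma, Benjamini-Hochberg adjusted p under 0.05 over all tested regions). Of all tested regions 9.71% differed, 6.8% higher and 2.92% lower. At an unadjusted p under 0.05 limma gave 14 higher and 0 lower, and edgeR and DESeq2 each called 9 higher and 0 lower after adjustment. All 10 of limma's calls lay between 308.5 and 470.4 kb upstream, assigned to 1700020N01Rik (6 of 21 tested) and Gm5420 (4 of 21 tested). The outermost call, starting at 21523881, had 2.58 and 7.32 scaled tags in WT and 49.2 and 28.5 in GrnKO. That region passed the tag filter only through GrnKO, and its input in WT replicate 1 was 84.6 scaled tags. The region with the smallest p, starting at 21678519 and nearest to Gm5420, rose from 37.1 and 44.2 scaled tags in WT to 226 and 234 in GrnKO (log2 difference 2.25, SE 0.22, limma adjusted p = 7.61e-06). It overlaps the next one, starting at 21678124, which rose from 30.0 and 47.2 to 214 and 203 (2.21, SE 0.23, limma adjusted p = 1.42e-05). A region starting at 21628322, nearest to 1700020N01Rik, rose from 13.2 and 21.2 to 119 and 117 (2.53, SE 0.31, limma adjusted p = 4.76e-05). In each of these 3 regions both GrnKO libraries lay above both WT libraries. The regions next to the Sgk1 members on either side were close to empty: the nearest 2 upstream had between 2.58 and 12.5 scaled tags and the nearest 2 downstream between 0 and 4.89. Nearest-promoter assignment does not show which gene a region acts on.

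**Figure D4:**
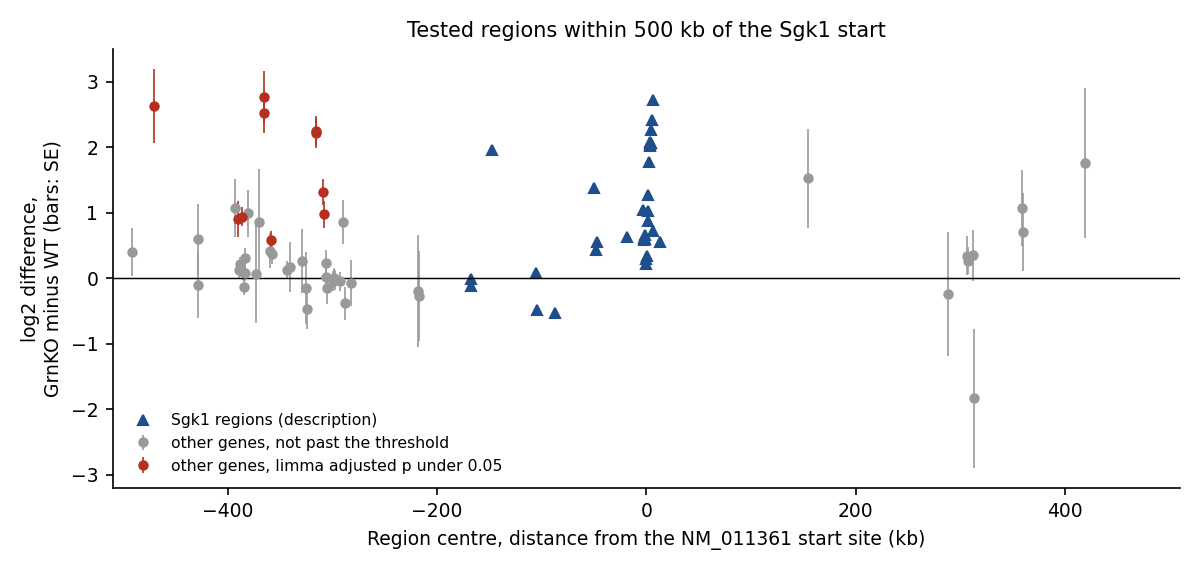
Log2 difference in H3K27ac (GrnKO minus WT, vertical axis; bars show the SE) for tested regions within 500 kb of the NM_011361 start site (distance in kb, horizontal axis). The 10 regions of other genes past the threshold lie between 308.5 and 470.4 kb upstream, and triangles show the 31 Sgk1 regions in the fit, for which no test is given.

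Genes that act with Sgk1 were read as sums of all regions assigned to each gene, from 3 lists taken from general knowledge. Over all 15380 genes tested 14.5% differed, 8.59% higher and 5.88% lower, with a median log2 difference of -0.05 (0.18 with the authors' scaling). Means below are TMM-scaled sums, with SD and n = 2, and adjusted p-values are those of limma over all genes.

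Among the glucocorticoid receptor, its partners and classic glucocorticoid-induced genes, 33 of 36 were tested, and 5 rose, 1 fell and 27 did not pass. The list's median was -0.07 (0.16 with the authors' scaling). The receptor gene itself, Nr3c1, had 2217 ± 110.2 in WT and 2033 ± 66.2 in GrnKO (log2 difference -0.12, adjusted p = 0.411), and was 0.10 with the authors' scaling. Fkbp5, which encodes a receptor co-chaperone and is a widely used readout of the receptor, had 1393 ± 299 and 1501 ± 167 (0.12, adjusted p = 0.632). Tsc22d3, which encodes the anti-inflammatory protein GILZ, had 1575 ± 351 and 1209 ± 133 (-0.37, adjusted p = 0.0967). A limma fit with the replicate number as a block called it lower (adjusted p = 0.0316). The genes that rose were Gadd45b, a stress-response gene (137 ± 26.4 to 576 ± 12.5, log2 difference 2.08, adjusted p = 1.04e-05), the metallothionein genes Mt2 (15.0 ± 8.63 to 81.1 ± 6.97, 2.47) and Mt1 (279 ± 8.70 to 661 ± 54.2, 1.24), Zbtb16, a zinc-finger repressor (216 ± 16.8 to 351 ± 6.05, 0.70), and Errfi1, a feedback inhibitor of EGF receptor signalling (606 ± 16.0 to 915 ± 30.1, 0.59). These 5 also respond to other stimuli. Cebpd, a C/EBP transcription factor, fell (2754 ± 222 to 2112 ± 36.1, -0.38, adjusted p = 0.0109), a call that the authors' scaling did not give (-0.15, adjusted p = 0.803).

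Among the other SGK kinases, the AKT kinases and the genes of mTORC2 and PI3-kinase signalling, all 29 were tested, 1 rose, 6 fell and 22 did not pass, with a median of -0.15 (0.06 with the authors' scaling). Sgk3, a paralog bound to endosomes, had 404 ± 15.6 in WT and 265 ± 13.7 in GrnKO and fell (log2 difference -0.61, SE 0.15, adjusted p = 0.0155). Sgk2 had 70.7 ± 2.18 and 41.3 ± 11.1 (-0.79, adjusted p = 0.124). The mTORC2 subunit gene Rictor fell from 172 ± 48.4 to 97.0 ± 9.25 (-0.80, adjusted p = 0.0416), while Pdpk1 had 91.6 ± 17.6 and 87.6 ± 3.77 (-0.05, adjusted p = 0.928). The kinase gene Wnk1 fell from 848 ± 90.7 to 605 ± 46.5 (-0.48, adjusted p = 0.0211), and Inpp5d, which encodes the inositol phosphatase SHIP1, from 14104 ± 35.9 to 12164 ± 516 (-0.21, adjusted p = 0.0221). Pik3ca, the gene of a PI3-kinase catalytic subunit, rose from 43.2 ± 10.8 to 211 ± 46.0 (2.27, adjusted p = 0.000116). With the authors' scaling 1 gene of this list rose, Pik3ca, and 1 fell. Sgk3, Rictor, Wnk1 and Inpp5d did not pass there, and Inpp5d turned to 0.01.

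Among substrates and regulated targets of SGK1, 37 of 38 were tested, 2 rose, 2 fell and 33 did not pass, with a median of -0.06 (0.16 with the authors' scaling). Slc2a1, which encodes the glucose transporter GLUT1, rose from 721 ± 25.2 to 1042 ± 55.7 (log2 difference 0.53, adjusted p = 0.00618), and Tfeb, which encodes a transcription factor of lysosomal genes, from 4224 ± 388 to 5318 ± 75.9 (0.34, adjusted p = 0.0113). Map3k3 and Chuk, genes of kinases in the MAP kinase and NF-kappaB pathways, fell by 0.38 and 1.03 on the log2 scale (adjusted p = 0.0286 and 0.0406). Nedd4l, the ubiquitin ligase gene whose product SGK1 is best known to inhibit, had 620.3 ± 99.0 and 601 ± 32.7 (-0.04, adjusted p = 0.901). Foxo3 had 1075 ± 100.7 and 983 ± 78.8 (-0.13, adjusted p = 0.529). Ndrg1, whose product is used as a readout of SGK1 activity, had 103 and 16.0 in WT and 85.7 and 102 in GrnKO, so that the genotypes overlapped (1.17, adjusted p = 0.22). With the authors' scaling 2 genes of this list passed, Slc2a1 (adjusted p = 0.0155) and Ndrg1 (1.39, adjusted p = 0.000986), while Tfeb did not (0.56, adjusted p = 0.205) and neither did Map3k3 or Chuk. In that scaling the WT libraries of Ndrg1 had 84.9 and 16.55 scaled tags. After TMM scaling edgeR did not call Ndrg1 (edgeR adjusted p = 0.509).

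**Figure D5:**
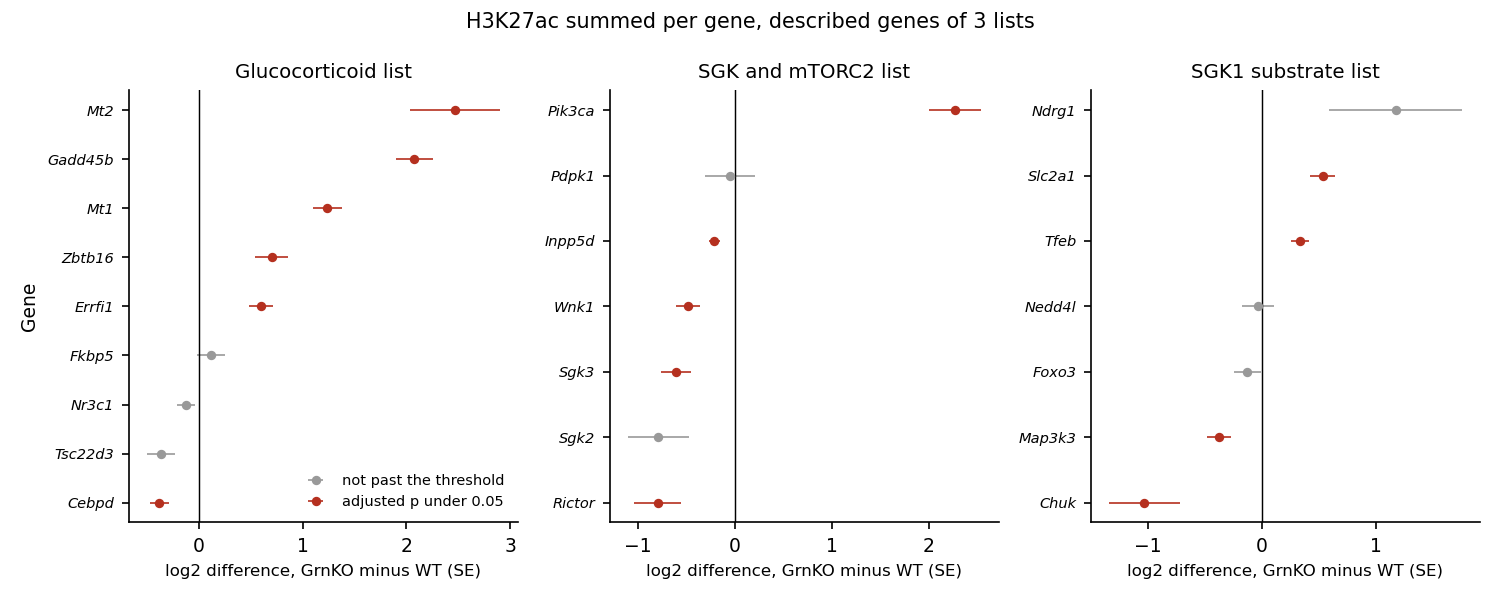
Log2 difference in H3K27ac summed per gene (GrnKO minus WT, horizontal axes; bars show the SE) for the genes of the 3 lists that the text describes (vertical axes), with genes at a limma adjusted p under 0.05 in red. Gadd45b, Mt2 and Pik3ca lie above 2, while Nr3c1, Fkbp5, Pdpk1, Nedd4l and Foxo3 lie within 0.13 of 0.

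The genes whose summed pattern over the 4 H3K27ac libraries was most like that of Sgk1 were Leprotl1, Nisch, Susd1, Rhof and A930007I19Rik. Likeness was the Euclidean distance between log2 values centred on their mean, over 5061 genes with at least 5 tested regions and a mean of at least 100 tags. The distances ran from 0.017 to 0.049 log2 units. Leprotl1, for example, had 162 and 147 TMM-scaled tags in WT and 239 and 237 in GrnKO, where Sgk1 had 2262 and 2017 in WT and 3288 and 3253 in GrnKO. With 4 libraries of 2 groups this measure holds little more than the difference between genotypes and the difference between WT replicates.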

How the data were processed

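H3K27ac ChIP-seq and input values of 8 libraries were used. The deposited values are a signal: per the file headers, the authors counted tags in 800 bp regions and scaled them to 10000000 tags per library. The table's title calls the regions ATAC peaks. The submitters' processing notes name Bowtie2, HOMER, DESeq2 and mm10. Multiplying by the header totals returned whole read ends, at 2 ends per tag, for 100% of values, within at most 0.0200 of an end. Coordinates are those of the table. Whole region sequences are not shown, because no genome was used here; promoter sequences are from RefSeq (GRCm38.p6).

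Regions were kept by edgeR's filterByExpr with a minimum of 10 tags. limma (3.58.1; trend) was fitted in R 4.3.3 to log2(TMM-scaled tags + 1) of the 4 H3K27ac libraries with genotype as its term, over 80728 regions and over sums for 15380 genes, with Benjamini-Hochberg adjustment at 0.05. This log2 scale understates changes of low regions. The 2 WT libraries had TMM factors of 0.825 and 1.04, and both GrnKO libraries 1.08. The floor was set at 3 tags and covers counting error only. edgeR (4.0.16), DESeq2 (1.42.0), other scalings, a pseudocount of 5, no filter, a replicate block and leaving out each library were tried, and the fits were tested on simulated data. Replicates are pools of different mice.

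The members and lists were chosen with earlier results of these data known. Named genes were those past the threshold in each list (at most 6 by smallest p), 10 genes named whatever their values (Nr3c1, Fkbp5, Tsc22d3, Sgk2, Sgk3, Rictor, Pdpk1, Nedd4l, Ndrg1 and Foxo3), the 3 other-gene regions within 500 kb with the smallest p in each direction, and the 5 genes most like Sgk1. Of the genes this rule names, 2 are not reported here, nor are some marker genes.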

Additional observations from a re-analysis of the deposited data

How the results depend on the processing

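The Sgk1 sum kept its direction in all 9 alternatives. Its log2 difference of 0.61 was 0.84 with the authors' scaling, which also moves the median of all tested regions to 0.22, and from 0.53 to 0.70 when a replicate was left out. Among single Sgk1 regions, those starting at 21826681 and 21826956 turned to 0.10 and 0.21 with the authors' scaling. When a replicate was left out, 5 regions whose log2 difference was small or uncertain changed sign, over these ranges: 21826956 from -0.11 to 0.076, 21889205 from -0.063 to 0.24, 21906875 from -1.11 to 0.032, 22001011 from -0.25 to 1.70 and 22007565 from -0.086 to 1.19. At 21998946, 21999765 and 22000330 the differences were 3.07, 2.97 and 3.69 without WT replicate 1 and 1.46, 1.87 and 1.79 without WT replicate 2. The summed input difference of 45.1 scaled tags ran from 16.7 to 73.6 when a replicate was left out.

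The number of differing regions, 7842, ran from 1351 to 14397 when a replicate was left out, lowest without GrnKO replicate 1 (1351) and GrnKO replicate 2 (1880) and highest without WT replicate 2 (14397) and WT replicate 1 (12949). In those fits the genotype with 1 library is assumed to vary like the other. The neighbouring regions called, 10, ran from 6 (without either GrnKO replicate) to 13. The glucocorticoid list ran from 4 to 13 genes called against 6 (13 without WT replicate 1, 10 without WT replicate 2), the SGK and mTORC2 list from 2 to 9 against 7 (2 and 3 without GrnKO replicates 2 and 1), and the substrate list from 0 to 8 against 4 (0 and 1 without GrnKO replicates 1 and 2, 7 and 8 without WT replicates 1 and 2). At an unadjusted p under 0.05 limma gave 3 substrate genes without GrnKO replicate 1. With the authors' scaling the SGK and mTORC2 list had 2 and the substrate list 2, and over all regions 6581 were higher and 333 lower, against 5488 and 2354. The cause of the changes without a replicate was not tested.

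A fit with a replicate block called 11391 regions, 10 neighbouring regions and 7, 8 and 6 genes of the 3 lists, and the Sgk1 sum stayed at 0.61. This fit also called Tsc22d3 lower (limma adjusted p = 0.0316), and a further microglial marker lower (limma adjusted p = 0.0206). The labels do not say what the number marks. The Xist and Y signal went with it in both genotypes, so the replicates differ by sex, while over 80728 regions the deviations of same-numbered libraries correlated at 0.034.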
